A study of Mus musculus with 2 samples.

Results

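Collecting duct principal-like nuclei were defined here as nuclei with a transcript of at least 3 of 8 genes of the water- and salt-handling collecting duct (Slc14a2, Aqp2, Aqp4, Fxyd4, Scnn1b, Kcnh7, Mgat4c and Lypd6) and of at most 1 of 4 ureteric tip genes (Ret, Wnt11, Ros1 and Slco4c1). This rule selected 853 of 18673 nuclei in late gestation (embryonic day E18.5) and 340 of 9289 nuclei at postnatal day 3 (P3), or 1193 of 27962 in all. The selected nuclei made up 4.57% of the E18.5 nuclei (exact binomial 95% interval 4.27 to 4.88) and 3.66% of the P3 nuclei (3.29 to 4.06). Because these nuclei were chosen on the transcripts of the 12 genes, the levels of those genes below are a description of the choice.

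The study profiled whole mouse kidneys by droplet single-nucleus RNA-seq, with 1 library for each age. The E18.5 library was made from kidneys of Mycf/f;Mycnf/f mice without Cre on a mixed background, in which both floxed genes remain intact, and the P3 library from wild-type C57BL/6J kidneys. Each library pooled kidneys of males and females. With 1 library per age no test between ages or between nuclei could be made, every interval below covers counting error only, and age, genotype, background, library and the release of the counting software cannot be told apart. A level is given in CPM, the unique molecular identifiers (UMIs) of a gene per 1000000 UMIs of a set of nuclei, and levels were compared between sets of nuclei, not between genes.

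Principal cells are the cell type of the collecting duct that reabsorbs water and sodium. Vasopressin acts through its receptor Avpr2 and cyclic AMP to bring the water channel Aqp2 to the apical membrane, and water leaves the cell through Aqp3 and Aqp4 at the basolateral side. Sodium enters through the epithelial sodium channel (subunits Scnn1a, Scnn1b and Scnn1g), under control of the mineralocorticoid receptor Nr3c2. In the inner medulla the urea transporter encoded by Slc14a2 lets urea pass into the interstitium. The duct descends from the stalk of the ureteric bud, whose tips express Ret and branch, and which carries the transcription factor Gata3 and the ligands Wnt9b and Wnt7b.

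Sequences upstream of a channel gene used for the rule and of one not used are shown because the water and sodium channels define this cell type. The Aqp2 promoter (chr15:99578806-99579105, plus strand, RefSeq, GRCm38.p6), from 250 bases before to 50 bases after the start, is printed 5′ to 3′ with capitals for the letters AGATAA of GATA factors or their reverse TTATCT, and for TGACGT, a part of the cAMP response element, or its reverse ACGTCA. The Scnn1g promoter (chr7:121734229-121734528, plus strand) is printed in the same way.
Aqp2: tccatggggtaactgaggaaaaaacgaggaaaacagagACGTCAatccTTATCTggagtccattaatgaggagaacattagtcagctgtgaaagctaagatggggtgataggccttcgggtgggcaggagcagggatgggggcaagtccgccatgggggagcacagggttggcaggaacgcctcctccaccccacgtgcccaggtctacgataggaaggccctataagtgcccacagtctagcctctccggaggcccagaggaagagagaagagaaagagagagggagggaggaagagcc
Scnn1g: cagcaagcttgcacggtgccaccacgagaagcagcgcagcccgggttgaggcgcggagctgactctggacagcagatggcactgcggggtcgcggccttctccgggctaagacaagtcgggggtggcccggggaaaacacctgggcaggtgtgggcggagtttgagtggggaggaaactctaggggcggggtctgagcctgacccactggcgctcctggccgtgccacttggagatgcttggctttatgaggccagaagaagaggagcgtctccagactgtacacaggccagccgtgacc
In the Aqp2 window the GATA letters began 202 bases and the cAMP response letters 212 bases before the start, both read on the other strand. The Scnn1g window held neither. Of the other rule genes with a window in the table, Mgat4c held the GATA letters in 3 of 4 windows, none held the cAMP response letters, and the windows of Fxyd4, Scnn1b, Kcnh7 and Lypd6 held neither, so the Aqp2 window was alone among them in holding both. Of 32851 mouse promoter windows of this length, 11.2% held the GATA letters, 7.51% the cAMP response letters and 0.536% both. The gene Aqp2 lies on chromosome 15 (99579055 to 99584547) and Scnn1g on chromosome 7 (121734479 to 121768475, GENCODE, GRCm38), and these matches describe letters only.

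The nuclei were deeper than the rest of each library. Their median was 3526 UMIs and 2169 genes at E18.5, against 2931 UMIs and 1878 genes in the other nuclei, and 5623.5 UMIs and 2767.5 genes at P3, against 4274 and 2269. Together they held 3119983 UMIs at E18.5 and 1961687 at P3, so that 3 UMIs corresponded to 0.962 and 1.53 CPM. Barcode sequences shared by both libraries numbered 69, of which 3 of the E18.5 and 1 of the P3 principal-like nuclei carried one. A doublet caller marked 20.8% of them at E18.5 against 9.65% of the other nuclei, and 14.7% against 9.48% at P3.

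Each of the 8 collecting duct genes of the rule was far above its level in the other nuclei, as the rule requires. The urea transporter gene Slc14a2 was at 479 CPM (Poisson 95% interval 455 to 504) against 15.3 CPM in other nuclei at E18.5, and at 2035 CPM (1972 to 2099) against 36.5 at P3. The vasopressin-regulated water channel Aqp2 was at 139 CPM (126 to 153) against 26.7 at E18.5 and at 82.6 CPM (70.4 to 96.3) against 10.4 at P3. Aqp4, the basolateral water channel, was at 117 against 5.80 CPM and at 108 against 4.32 CPM. Between the ages, the level of Slc14a2 in the selected nuclei was thus higher at P3, and that of Aqp2 was lower.

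Fxyd4, a regulator of the sodium pump, was at 490 CPM at E18.5 and 402 CPM at P3, against 36.6 and 13.2 CPM in other nuclei. Scnn1b, the beta subunit of the epithelial sodium channel, was at 341 and 259 CPM, against 20.5 and 24.9 CPM. The potassium channel gene Kcnh7 was at 1076 and 762 CPM, the glycosyltransferase gene Mgat4c at 440 and 617 CPM, and Lypd6, a GPI-anchored protein gene, at 357 and 228 CPM. The share of nuclei with a UMI ranged from 30.5% (Aqp4) to 82.9% (Kcnh7) at E18.5 and from 34.7% (Aqp2) to 76.8% (Fxyd4) at P3. Among the tip genes, the receptor tyrosine kinase gene Ros1 stood apart from the others. It was at 127 CPM against 23.3 CPM in other nuclei at E18.5 and at 151 against 12.5 CPM at P3, whereas Ret was at 1.28 and 3.06 CPM and Wnt11 at 6.09 and 6.63 CPM, below their levels in the other nuclei. The limit on tip genes set aside 81 nuclei at E18.5 and 56 at P3.

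**Figure D1:**
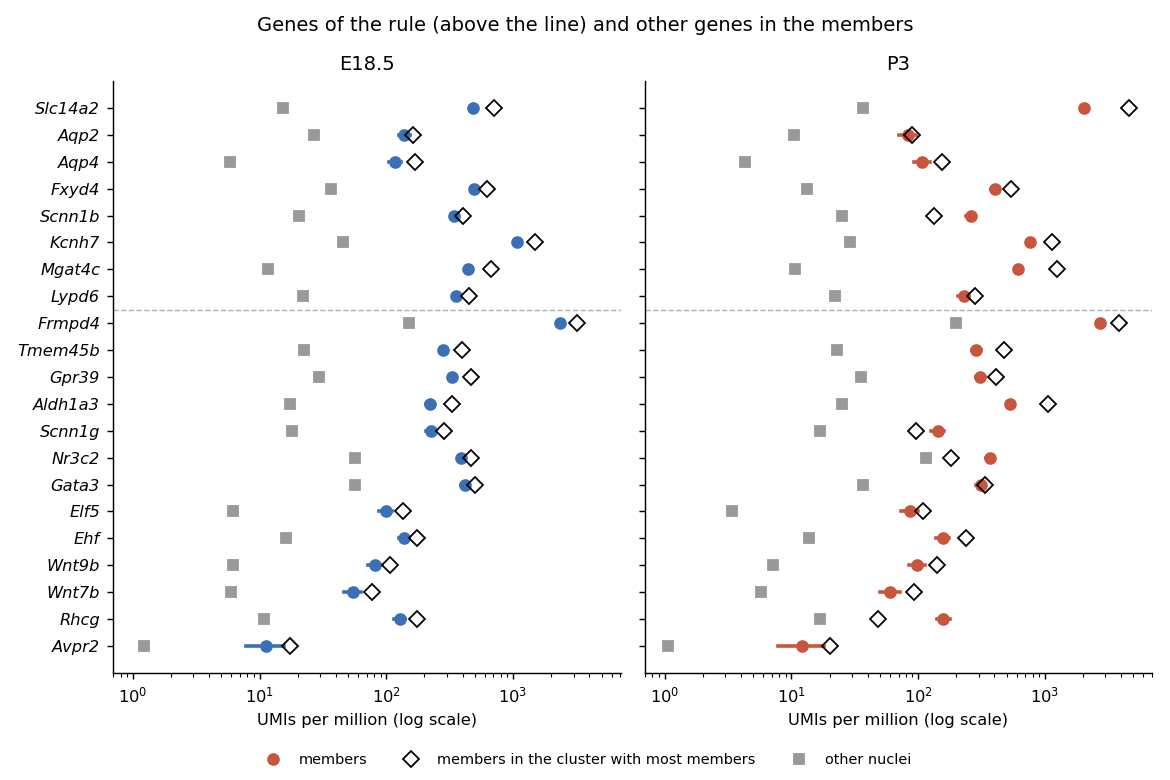
Level of each gene of the rule (above the dashed line) and of 13 other genes at E18.5 and P3, on a log axis of CPM. Filled circles are the selected nuclei (members) with Poisson 95% intervals, open diamonds those in the cluster with most of them, and gray squares all other nuclei of the library, which lie to the left for every gene plotted.

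The number of rule genes per nucleus ranged widely. At E18.5, 285 nuclei carried 3 genes, 213 carried 4, 170 carried 5, 122 carried 6, 54 carried 7 and 9 carried all 8. At P3 the numbers were 112, 58, 55, 65, 42 and 8. Just outside the threshold, 1060 nuclei at E18.5 and 532 at P3 carried 2 of the genes, counted without the limit on tip genes. Gata3, which the rule did not use, was at 154 CPM in nuclei with 2 genes, 318 CPM with 3 and 496 CPM with 6 to 8 at E18.5, and at 106, 225 and 367 CPM at P3. Elf5, an ETS factor, was at 14.2, 48.0 and 117.5 CPM at E18.5 and at 7.05, 44.7 and 126 CPM at P3. The podocyte gene Magi2 went the other way, at 2131, 803 and 305 CPM at E18.5 and at 1007, 934 and 506 CPM at P3. The steps between were uneven. With 4 and 5 genes, Gata3 was at 435 and 445 CPM at E18.5 and at 340 and 317 CPM at P3. Magi2 was at 867 and 651 CPM at E18.5 and at 406 and 386 CPM at P3. Slc12a3, the sodium chloride cotransporter of the distal convoluted tubule, was at 134.5, 64.1 and 34.2 CPM at E18.5, and at 361, 636 and 18.1 CPM at P3, so that its level was highest in the P3 nuclei with exactly 3 genes.

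To see where the nuclei fell when the 12 genes were not used, each library was clustered without them. At E18.5, 476 of the 853 nuclei (55.8%, exact binomial 95% interval 52.4 to 59.2) were in cluster 13, where they made up 86.2% of 552 nuclei. Its leading genes outside the rule were Frmpd4, Tmem45b, B020031H02Rik and Gpr39. At P3, 135 of the 340 (39.7%, 34.5 to 45.1) were in cluster 20, where they made up 91.2% of 148 nuclei, led by Lix1, Aldh1a3, Frmpd4 and Ranbp3l. These are called the main cluster below. They came from separate clusterings of the 2 libraries and were not shown to hold the same kind of nuclei. Frmpd4, Tmem45b, B020031H02Rik and Aldh1a3 were among the 10 leading genes of both, whereas Plppr1 and Scnn1g were among those of cluster 13 at E18.5 and, at P3, of a cluster other than 20. The share in the main cluster was higher with each further rule gene, from 27.7% of nuclei with 3 genes to 88.9% with 8 at E18.5, and from 6.25% to 87.5% at P3.

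**Figure D2:**
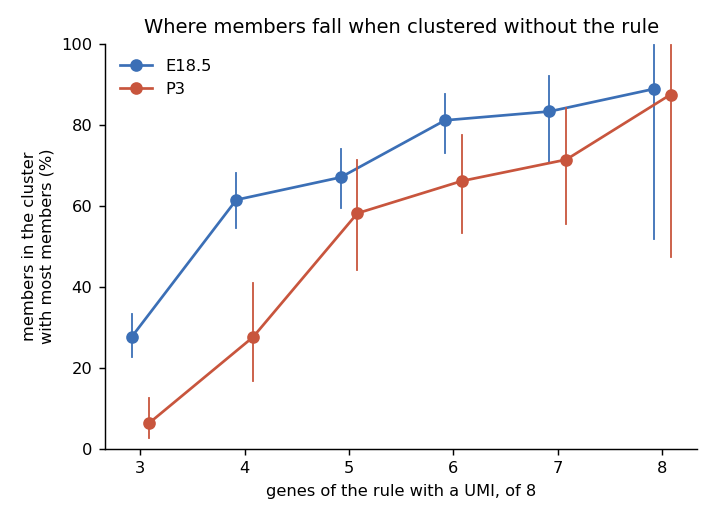
Share of the selected nuclei that fell in the main cluster (percent, y axis) by the number of the 8 rule genes with a UMI (x axis), at E18.5 and P3, with exact binomial 95% intervals. The share with 3 genes was 27.7% at E18.5 and 6.25% at P3, and with 8 genes it was 88.9% and 87.5%.

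The remaining nuclei lay in several other clusters. A cluster led by Nrg3, Grik2 and 9230110F11Rik held 74 nuclei (8.68%) at E18.5. At P3 a cluster led by 9230110F11Rik, Ctnnd2 and Grik2, with Gfra1 further down its top genes, held 98 (28.8%). Gfra1, which encodes the co-receptor of Ret at the ureteric tip, was not among the leading genes of the E18.5 cluster. At E18.5 a cluster led by Slc12a3, Abca13 and Tmem52b held 35 nuclei (4.10%), none of them called a doublet. Clusters with many called doublets held others at that age. Cluster 15 (led by Wdr17, with Slc12a3 among its top genes) held 81, of which 95.1% were called doublets, cluster 20 held 49 (83.7% called) and cluster 27, led by the podocyte genes Magi2, Nebl and Synpo, held 28 (82.1% called). The call fell in the main cluster on 1.89% of the selected nuclei at E18.5 and 7.41% at P3. At P3 a cluster led by E330013P04Rik, Plppr1 and Thsd7b, with Scnn1g among its top genes, held 21, a cluster led by Slc12a3, Calb1 and Trpm6 held 13, and a cluster led by proximal tubule genes held 15, all called doublets. In all, 377 nuclei at E18.5 and 205 at P3 lay outside the main cluster. Of the genes that the rule did not use, Scnn1g (96.5 and 174 CPM), Nr3c2 (180.2 and 492 CPM) and Tfcp2l1 (269 and 624 CPM) were lower inside than outside it at P3. No cell type is given to either division.

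Marker lists of other cell types differed across this division. The 9 proximal tubule genes summed to 367 CPM in the main cluster, 624 CPM in the selected nuclei outside it and 1015 CPM in all other nuclei at E18.5, and to 348, 1788 and 2773 CPM at P3. None of the 9 was at 0, and Lrp2 (E18.5) and Slc34a1 (P3) had the most UMIs. The 7 podocyte genes summed to 592, 1437 and 3129 CPM at E18.5 and to 429, 902 and 2234 CPM at P3. The 9 distal convoluted tubule genes summed to 2723 CPM in the main cluster, 1872 CPM outside it and 1136 CPM in all other nuclei at E18.5, and to 2893, 6072 and 1739 CPM at P3, where Pvalb had no UMI. Most of these sums came from Slc8a1, the sodium calcium exchanger. Without it the other 8 genes summed to 70.6, 150.2 and 142 CPM at E18.5 and to 100.3, 656 and 208 CPM at P3, lowest in the main cluster at both ages. Slc8a1 alone was at 2204 CPM in the selected nuclei against 994.5 CPM in others at E18.5, and at 4363 against 1530 CPM at P3. The part of nuclei of other types in the levels of the selected nuclei was not tested. In the main cluster, Frmpd4 was at 3182 and 3865 CPM at E18.5 and P3, Gata3 at 502 and 339 CPM, Elf5 at 136 and 109 CPM, Scnn1g at 287 and 96.5 CPM and Nr3c2 at 462 and 180.2 CPM, which may be set beside the levels over all selected nuclei below.

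The 14 intercalated cell genes summed to 207 CPM at E18.5 and 334 CPM at P3, above the 85.8 and 138 CPM of other nuclei. Rhcg, an ammonia transporter of both intercalated and principal cells, had the most UMIs on that list, while Slc4a1, Slc26a4 and Hmx2 had none at E18.5. The same list summed to 235 CPM in the main cluster and 177 CPM outside it at E18.5, and to 80.0 and 505 CPM at P3. The 8 ureteric tip genes outside the rule summed to 298.5 CPM in the main cluster at E18.5 and 96.5 CPM at P3. In the ureteric tip nuclei, those with a UMI of at least 2 of the 4 tip genes, they summed to 2080 and 1367 CPM. These tip nuclei numbered 450 at E18.5 and 202 at P3, including the 81 and 56 set aside by the limit on tip genes. The 8 collecting duct genes of the rule summed to 815 and 1202 CPM in them, against 184 and 151 CPM in other nuclei. Over all selected nuclei the 8 ureteric tip genes outside the rule summed to 355 CPM at E18.5 and 298 CPM at P3, against 342 and 251 CPM in other nuclei. Outside the main cluster they summed to 415 and 433 CPM. The nephron progenitor list summed to 98.5 and 99.0 CPM in the main cluster, against 745 and 741 CPM in other nuclei. Endothelial genes were at 183 and 165 CPM there and leukocyte genes at 37.2 and 29.2 CPM. Hemoglobin and other erythroid genes summed to 724 CPM in all selected nuclei at E18.5 and 105 CPM at P3, against 896 and 159 CPM in other nuclei.

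**Figure D3:**
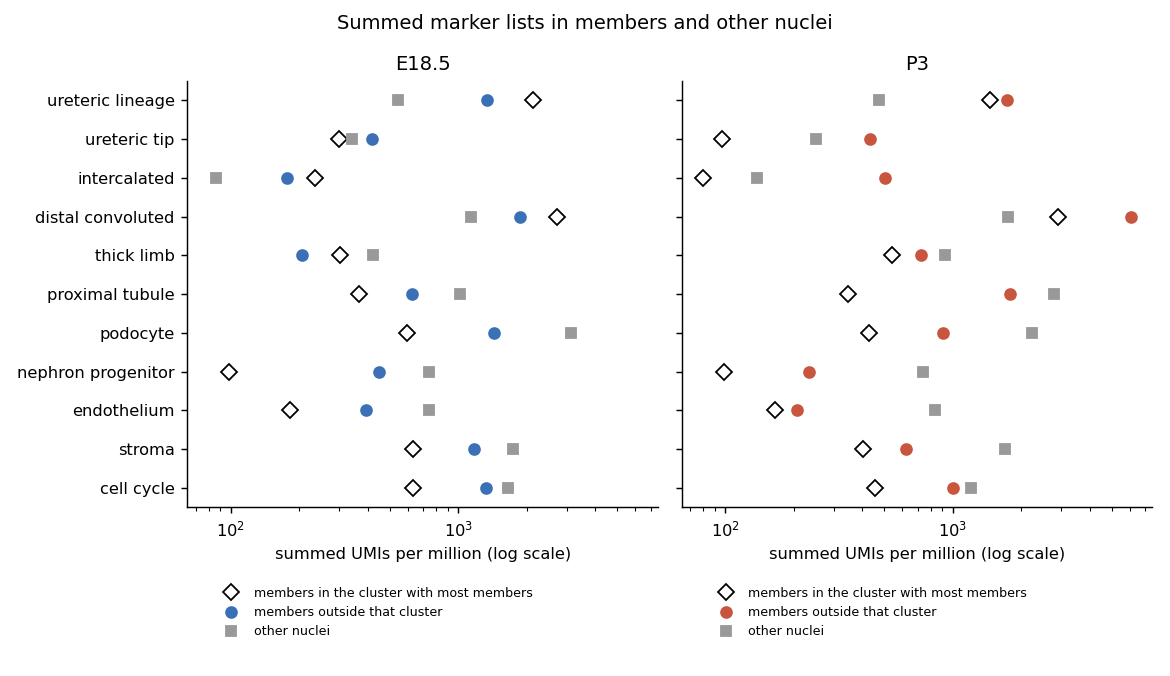
Summed level of marker lists (CPM, log axis) at E18.5 and P3 in selected nuclei of the main cluster (diamonds), selected nuclei outside it (circles) and other nuclei (squares). For the proximal tubule, podocyte, nephron progenitor, endothelium, stroma and cell cycle lists the main cluster lies lowest at both ages.

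Across all genes, levels in the selected nuclei were compared with those in the other nuclei of the same library. A gene was counted as higher or lower where the ratio passed 2 with 10 CPM added to both levels, among genes with at least 10 CPM on either side and without the 12 rule genes. At E18.5, 409 of 11710 genes (3.49%) were higher and 287 (2.45%) lower. At P3, 424 of 11336 (3.74%) were higher and 608 (5.36%) lower. The balance depended on the nuclei kept. At E18.5 the counts were 487 higher and 544 lower without called doublets, 601 and 895 in the main cluster, and 268 and 3 without an upper UMI limit. At P3 they were 494 and 816, 651 and 1274, and 207 and 57. Since the nuclei were chosen on genes that vary together with many others, these ratios are descriptions.

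Frmpd4, Crybg1, Tmem45b, B020031H02Rik, Aldh1a3 and Myo3b were among the 10 highest ratios outside the rule at both ages. Frmpd4, a scaffold protein gene on chromosome X (167471309 to 168577231), was at 2327 CPM (2274 to 2381) against 152 CPM in other nuclei at E18.5 and at 2718 CPM (2645 to 2792) against 199 CPM at P3. In the ureteric tip nuclei it was at 1014 and 1424 CPM, between those levels. Tmem45b, a transmembrane protein gene, was at 282 against 22.3 CPM and at 287 against 22.9 CPM. Crybg1 was at 373 against 31.3 CPM and at 372 against 34.5 CPM. The long noncoding RNA gene B020031H02Rik was at 85.6 against 1.17 CPM and at 80.0 against 1.52 CPM.

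Aldh1a3, which makes retinoic acid, was at 221.5 CPM (205 to 239) against 17.5 CPM at E18.5 and at 531 CPM (499 to 564) against 24.9 CPM at P3. Gpr39, a zinc-sensing receptor gene that ranked at E18.5, was at 330.1 against 29.5 CPM and at 309.9 against 35.6 CPM. Myo3b, a class III myosin, was at 184 against 13.4 CPM and at 284 against 29.2 CPM. Plppr1 was at 464 against 45.0 CPM at E18.5 and Opcml, a cell adhesion protein gene of the IgLON family, at 305 against 29.2 CPM. At P3, Lix1 was at 305 against 13.7 CPM, Rasgrf2, an exchange factor for Ras and Rac, at 149 against 10.3 CPM, Mal2 at 181 against 15.9 CPM and the calcium- and calmodulin-dependent phosphodiesterase gene Pde1c at 295 against 32.7 CPM.

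By count, the transcription factors of the collecting system were the list with the most genes above the other nuclei. Of 23 listed genes 9 were higher at E18.5 and none lower, against 3.49% and 2.45% of all genes, with a median log2 ratio of 0.77 against -0.07 over all genes. At P3, 10 of 22 were higher and none lower, against 3.74% and 5.36%, with a median of 0.86 against -0.05. The ureteric lineage list, which shares genes with this one, had a larger share. There 5 of 12 genes were higher at E18.5 and 8 of 12 at P3, and none lower. One of those at P3, Calb1, had a ratio of 0.514 in the main cluster. The ureteric lineage list summed to 1748 and 1617 CPM in the selected nuclei, below the 1836 and 2307 CPM of the distal convoluted tubule nuclei described below. It summed to 2127 and 1461 CPM in the main cluster and to 1342 and 1723 CPM outside it. At P3 the adhesion and keratin list also had a larger share, with 9 of 15 higher and none lower. Its sum was higher still in proximal tubule nuclei, as given below. Gata3 was at 414 CPM (391.5 to 437) against 56.7 CPM at E18.5 and at 311 CPM (287 to 337) against 36.8 CPM at P3. Elf5 was at 98.7 against 6.17 CPM and at 85.6 against 3.41 CPM, and Ehf, a related ETS factor, at 138 against 16.1 CPM and at 156.5 against 13.7 CPM. Tfcp2l1, a grainyhead-related factor of the collecting duct, was at 587 against 129.5 CPM and at 482 against 182 CPM. Gata2, Tfap2a, Klf5 and Grhl2 were also higher at both ages, Esrrg at E18.5, and Mecom and Sim1 at P3. Some of these genes were also high in other nuclei. The ureteric tip nuclei were at 357 and 283 CPM for Gata3 and at 106.5 and 96.8 CPM for Ehf, and after thinning at E18.5 31.5% of the selected nuclei and 31.1% of the tip nuclei held a Gata3 UMI, whereas Elf5 was at 23.7 and 24.8 CPM in the tip nuclei, below its level in the selected nuclei. The whole list of transcription factors summed to 8306 CPM in the selected nuclei at E18.5 and 8909 CPM at P3, below the 15290 and 16150 CPM of the distal convoluted tubule nuclei.

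Of the genes of sodium and potassium transport outside the rule, 5 of 23 were higher at E18.5 (Scnn1a, Scnn1g, Nr3c2, Kcnj16 and Nedd4l) and none lower, against 3.49% and 2.45% of all genes. At P3 5 were higher and 1 lower, against 3.74% and 5.36%. There Scnn1a, Scnn1g, Nr3c2, Nedd4l and the kinase gene Wnk4 were higher, and Kcnma1, a calcium-activated potassium channel, was lower. The list summed at E18.5 to 4321 CPM in the main cluster, 3442 CPM outside it and 2445 CPM in other nuclei. At P3 it summed to 2900, 4897 and 3000 CPM, so the main cluster was not above the other nuclei. Scnn1g was at 224 CPM (207 to 241) against 17.9 CPM at E18.5 and at 143 CPM (126.5 to 160.5) against 16.9 CPM at P3. Nr3c2, the mineralocorticoid receptor, was at 387.5 against 56.6 CPM and at 367 against 116 CPM. The distal convoluted tubule nuclei were those outside the selected set with at least 3 of 8 genes of that segment (156 at E18.5 and 127 at P3). They were at 643 CPM for Nr3c2 and 115 CPM for Scnn1g at E18.5 and at 858 and 190.2 CPM at P3. The whole list summed to 8830 and 11780 CPM in them, against 3897 and 4095 CPM in the selected nuclei. Hsd11b2, the enzyme that shields the mineralocorticoid receptor from glucocorticoids, was at 30.8 against 13.8 CPM and at 21.4 against 6.67 CPM. Sgk1, a kinase that acts on the sodium channel, was at 69.2 against 44.5 CPM and at 48.9 against 28.4 CPM.

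Of the vasopressin and cAMP list, 2 of 21 genes were higher at E18.5, against 3.49% of all genes. These were Aqp3 and the prostaglandin receptor gene Ptger1. At P3, 2 of 21 were higher, Ptger1 and the vasopressin receptor gene Avpr2, and 1 lower, the cAMP phosphodiesterase gene Pde4b, against 3.74% and 5.36% of all genes. The list's median log2 ratio was -0.11 at both ages. Avpr2 was at 11.2 CPM (7.81 to 15.6) against 1.22 CPM at E18.5 and at 12.2 CPM (7.84 to 18.2) against 1.06 CPM at P3. It had no UMI in the distal convoluted tubule nuclei of either age, from which the selected nuclei were left out. Thinned to 1000 UMIs, 0.938% of the selected E18.5 nuclei held an Avpr2 UMI (0.406 to 1.84). Aqp3 was at 35.9 CPM (29.6 to 43.2) against 9.30 CPM at E18.5 and at 14.3 CPM (9.49 to 20.6) against 5.25 CPM at P3. The adenylyl cyclase gene Adcy6 was at 76.0 against 43.9 CPM and at 112 against 61.0 CPM, within a ratio of 2.

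Among signals of the ureteric epithelium, Wnt9b was at 81.7 CPM (72.0 to 92.4) against 6.11 CPM at E18.5 and at 98.4 CPM (85.0 to 113) against 7.11 CPM at P3. Wnt7b, the stalk ligand that patterns the medulla, was at 54.2 against 6.00 CPM and at 60.2 against 5.72 CPM. In the ureteric tip nuclei Wnt7b was at 9.74 and 16.5 CPM, whereas Wnt9b was at 49.3 and 95.1 CPM. Wnt9b at P3 was therefore close to its level in the tip nuclei, and Wnt7b was above it at both ages. The part in these tip levels of nuclei that the limit on tip genes set aside was not tested. Tcf7l2, a factor that carries Wnt signals to DNA, was at 608 against 298 CPM and at 641 against 370 CPM, and Npnt, the nephronectin gene, at 475 against 202 CPM and at 672 against 338 CPM. The Wnt amplifier Rspo3 was lower at both ages and Lef1 at P3. In all, 5 of 20 genes were higher and 1 lower at E18.5, against 3.49% and 2.45% of all genes, and 3 of 21 higher and 2 lower at P3, against 3.74% and 5.36%.

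Epithelial structure genes were partly shared. Among adhesion and keratin genes, Lama5, Cdh1 and Dsp were higher at both ages, and Cdh16, Itga3, Krt7, Krt18 and Epcam at P3. E-cadherin (Cdh1) was at 161 against 55.9 CPM at E18.5 and at 160.1 against 50.6 CPM at P3. The whole adhesion and keratin list summed to 1365 and 1547 CPM in the selected nuclei. In proximal tubule nuclei, those outside the selected set with at least 5 of the 9 proximal tubule genes, it summed to 2060 and 2345 CPM. In the distal convoluted tubule nuclei it summed to 1628 and 1427 CPM. Of the tight junction genes, Tjp3 and Ocln were higher at both ages, with Ocln at 82.7 against 22.5 CPM and at 101 against 26.2 CPM. Cldn7 was higher and Cldn10, a claudin of other tubule segments, lower at P3. Pkhd1, the gene of recessive polycystic kidney disease, was at 1131 against 443 CPM at E18.5 and at 1991 against 978 CPM at P3 and was the only one of 13 cystic kidney genes to pass, against 3.49% and 3.74% of all genes higher, with list medians of 0.02 and 0.06 on the log2 scale, near no change. After thinning, 60.1% and 70.6% of the selected nuclei held a Pkhd1 UMI, against 77.4% and 81% of the proximal tubule nuclei. Of the Notch genes, 0 of 10 were called at E18.5, and at P3 0 of 9 were higher and 1, Notch1, lower, against 3.74% and 5.36% of all genes.

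Of 20 cell cycle genes none was called at either age, against 2.45% of all genes lower at E18.5 and 5.36% at P3, and their median log2 ratio was -0.66 and -0.44, against -0.07 and -0.05 over all genes. The list summed to 966 CPM against 1657 CPM at E18.5 and to 784 against 1198 CPM at P3. It summed to 630 and 456 CPM in the main cluster, and in the ureteric tip nuclei to 2141 and 1321 CPM. Mki67, a gene of cycling cells, was at 98.7 against 156 CPM and at 91.2 against 144 CPM, and Top2a at 147 against 259.5 CPM and at 111 against 154 CPM.

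Turning to the ages, the selected nuclei of the P3 library were set against those of the E18.5 library by the same ratio. Of 11487 genes, 182 (1.58%) were higher at P3 and 530 (4.61%) lower, with a median log2 ratio of -0.09 against -0.06 in the other nuclei. In the main cluster, 322 of 11291 genes (2.85%) were higher and 905 (8.02%) lower, with a median of -0.12. The counts in the main cluster were therefore larger in both directions. Markers of other cell types were among the genes lower there. At P3, 6 of 7 podocyte, 4 of 7 stroma and 4 of 5 erythroid genes were lower and none higher, against 8.02% of all genes lower. None of 9 proximal tubule and 8 endothelium genes was called in the main cluster. Over all selected nuclei 5 of 9 proximal tubule genes were higher, against 1.58% of all genes. The mix of clusters behind the selected nuclei differed between the libraries, and a ratio in the main cluster is one between cluster 13 at E18.5 and cluster 20 at P3. The part of nuclei divided differently by the 2 clusterings in these ratios was not tested, and several of them were not seen over all selected nuclei.

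The genes of the rule did not move together. In the main cluster, the level of Slc14a2 was 704 CPM at E18.5 and 4642 CPM at P3, a ratio of 6.59 (Poisson-based 95% interval 6.17 to 7.05), whereas outside it the levels were 237 and 285 CPM. Mgat4c went from 673 to 1245 CPM (ratio 1.85, 1.69 to 2.02). Aqp4 was at 169 and 154 CPM (0.909, 0.727 to 1.13), an interval that includes 1, and Fxyd4 at 626 and 542 CPM (0.866, 0.771 to 0.970). Aqp2 was lower at P3, at 162 and 88.8 CPM (0.550, 0.416 to 0.718), and in the other nuclei it was also lower, at 26.7 and 10.4 CPM. Scnn1b was lowest of the 8 by ratio, at 406 and 133 CPM in the main cluster (0.328, 0.264 to 0.404), while outside it the level was 272 and 343 CPM. The tip gene Ros1 was at 158.5 and 231 CPM (1.46, 1.20 to 1.77) in the main cluster.

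**Figure D4:**
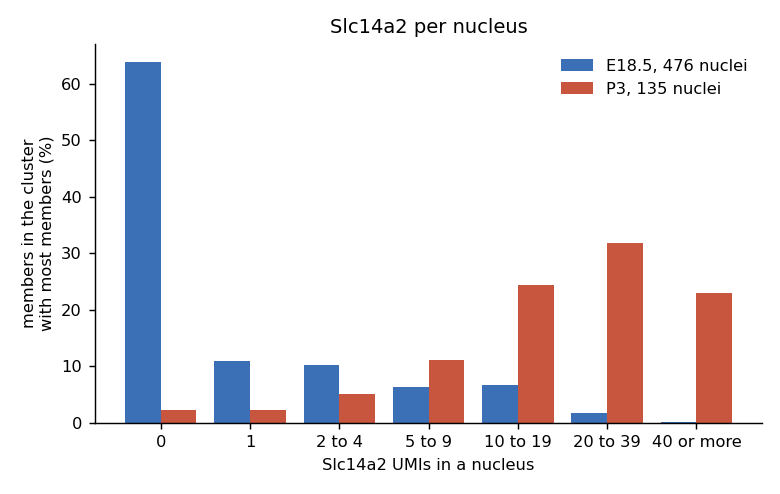
UMIs of Slc14a2 per nucleus in the selected nuclei of the main cluster, in classes of UMI number (x axis), as the share of those nuclei in percent (y axis), at E18.5 (476 nuclei) and P3 (135 nuclei). At E18.5 the class with 0 UMIs held 304 nuclei, and at P3 it held 3, with most P3 nuclei at 10 or more.

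Slc14a2 is a gene of the rule, so the values of it that follow describe nuclei chosen in part on it. In the main cluster 172 of 476 nuclei (36.1%) had an Slc14a2 UMI at E18.5 and 132 of 135 (97.8%) at P3. After each nucleus was thinned to 1000 UMIs, the shares were 22.7% (exact binomial 95% interval 19 to 26.7) and 87.4% (80.6 to 92.5). Proximal tubule nuclei, which should lack this gene, gave 1.58% and 2.08% at the same depth (median 4021 and 6058 UMIs before thinning), and the selected nuclei outside the main cluster 12.7% and 11.2%. No selected nucleus was counted among the proximal tubule nuclei, so the rule itself limits how many of those can carry Slc14a2. Where the gene was detected, the median was 3 UMIs at E18.5 and 22.5 at P3. The highest count in any nucleus was 76 for E18.5 and 104 for P3, so that the ranges overlapped, with 41 nuclei at E18.5 and 107 at P3 at 10 UMIs or more.

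Within the E18.5 main cluster, several genes outside the rule differed between nuclei with and without Slc14a2. Nuclei without it had to carry 3 of the other 7 genes of the rule and nuclei with it only 2, so these genes are left out and the ratios were also computed with at least 3 of the 7 on both sides (164 and 304 nuclei), an alternative added after the data were seen. The 172 nuclei with an Slc14a2 UMI had a median of 3620 UMIs and the 304 without 3189. Aldh1a3 was at 640 CPM in the nuclei with it and at 128 CPM in those without (ratio 5.00, 4.08 to 6.15). Lix1 was at 282 and 41.7 CPM (6.76, 4.79 to 9.75), Ranbp3l at 429 and 86.4 CPM (4.97, 3.88 to 6.42), and Dlgap1, a scaffold gene of the postsynaptic density, at 204 and 23.4 CPM (8.74, 5.58 to 14.3). Gata3 was at 539 and 479 CPM (1.12, 0.975 to 1.30) and Elf5 at 133 and 138 CPM (0.962, 0.724 to 1.27), both with intervals that include 1. With the same requirement on both sides the ratios were 5.06 for Aldh1a3, 6.85 for Lix1, 4.39 for Ranbp3l and 7.41 for Dlgap1.

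Other genes were lower in the nuclei with Slc14a2. Aqp3 was at 19 CPM with and 53.9 CPM without Slc14a2 (0.353, 0.172 to 0.669), Rhcg at 98.2 and 225 CPM (0.437, 0.324 to 0.582), Ptger1 at 36.4 and 91.5 CPM (0.398, 0.240 to 0.635) and Nr3c2 at 315 and 556 CPM (0.567, 0.480 to 0.668). With the same requirement on both sides the ratios were 0.368 for Aqp3, 0.448 for Rhcg, 0.397 for Ptger1 and 0.588 for Nr3c2. At P3 only 3 nuclei of the main cluster lacked the gene, so no such division could be made there.

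The genes with the largest ratios between the ages fell into those shared with the main cluster and those found outside it. Over all the selected nuclei the ratios were 12.7 for Agmo, 4.64 for Dlgap1, 4.49 for Xkr4, 4.55 for Fgf12, 3.97 for Ranbp3l, 3.17 for Lix1 and 2.40 for Aldh1a3. Agmo, which encodes an ether lipid-cleaving enzyme, was at 14.9 CPM in the main cluster at E18.5 and 279 CPM at P3 (18.8, 12.3 to 30.0). Dlgap1 was at 94.1 and 918 CPM (9.75, 8.18 to 11.7) there, against 84.6 and 88.4 CPM in the other nuclei. Xkr4 was at 22.9 and 282 CPM (12.3, 8.66 to 17.9), and Fgf12, an intracellular FGF-family protein that acts on sodium channels, at 80.5 and 670.2 CPM (8.32, 6.86 to 10.2). Ranbp3l went from 220.4 to 1168 CPM (5.30, 4.68 to 6.00) and Lix1 from 136 to 657.5 CPM (4.85, 4.13 to 5.71). Aldh1a3 went from 328 to 1054 CPM (3.21, 2.88 to 3.59), against 1.42 times in the other nuclei.

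By contrast, Slc12a3, Egfem1, Abca13 and Calb1 were high at P3 mainly outside the main cluster. Slc12a3 was at 36.9 CPM at E18.5 and 277 CPM at P3 in the selected nuclei, but at 22.9 CPM at both ages in the main cluster (ratio 0.997, 0.534 to 1.80) and at 51.8 and 447 CPM outside it. Egfem1 was at 22.1 and 216 CPM in the selected nuclei and at 18.6 and 36.8 CPM in the main cluster. Abca13 was at 23.4 and 147 CPM, and at 17.96 and 36.8 CPM in the main cluster. The calcium-binding protein gene Calb1 was at 72.8 and 169 CPM in the selected nuclei, at 52.0 and 25.4 CPM in the main cluster and at 95.01 and 265 CPM outside it. Gm19951 was higher at P3 in the main cluster (8.67 and 105 CPM) and in all other nuclei (11.6 and 134 CPM) alike.

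Of 23 genes of sodium and potassium transport none was higher and 3 were lower at P3 in the main cluster, against 8.02% of all genes lower, and over all the selected nuclei none was called in either direction. Scnn1g was at 287 CPM at E18.5 and 96.5 CPM at P3 in the main cluster (0.337, 0.260 to 0.430), and at 156 and 174 CPM outside it. Nr3c2 was at 462 and 180.2 CPM (0.390, 0.324 to 0.468), and at 308 and 492 CPM outside it. Hsd11b2 was at 37.8 and 5.08 CPM (0.134, 0.0355 to 0.362). In the other nuclei, Scnn1g was at 17.9 and 16.9 CPM and Nr3c2 at 56.6 and 116 CPM, so the lower level of Nr3c2 was not shared by them. Nedd4l, the ubiquitin ligase of the sodium channel, was at 1079 and 753 CPM in the main cluster (0.697, 0.634 to 0.766) and, the other way, at 922 and 985 CPM over all selected nuclei.

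Of 22 transcription factors 3 were lower and none higher in the main cluster, against 8.02% and 2.85% of all genes. Tfcp2l1 was at 743 CPM at E18.5 and 269 CPM at P3 in the main cluster (0.362, 0.311 to 0.419), and at 420 and 624 CPM outside it. The estrogen-related receptor gene Esrrg was at 2830 and 901 CPM (0.318, 0.294 to 0.345), but at 2356 and 2270 CPM over all selected nuclei. It was at 7558 and 9043 CPM in the distal convoluted tubule nuclei, so high levels were not particular to the selected nuclei. Ppargc1a, a coactivator of mitochondrial genes, was at 232 and 103 CPM (0.444, 0.345 to 0.566), but at 224 and 229 CPM over all selected nuclei. Gata3 was at 502 and 339 CPM (0.675, 0.586 to 0.776), Elf5 at 136 and 109 CPM (0.801, 0.617 to 1.03), and Ehf at 175 and 237 CPM (1.36, 1.12 to 1.64), none past a ratio of 2.

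Of 20 vasopressin and cAMP genes 2 were higher and 1 lower at P3 in the main cluster, against 2.85% and 8.02% of all genes. Pde4d, a phosphodiesterase that degrades cAMP, was at 261 CPM at E18.5 and 749 CPM at P3 in the main cluster (2.87, 2.53 to 3.26), at 394 and 809 CPM over all selected nuclei and at 646 and 1011 CPM in the other nuclei. The adenylyl cyclase gene Adcy9 was at 20.4 and 64.7 CPM (3.17, 2.01 to 5.07), and at 27.2 and 69.8 CPM over all selected nuclei. Aqp3 was at 40.2 and 7.62 CPM (0.189, 0.0670 to 0.435). Avpr2 was at 17.3 and 20.3 CPM and Ptger1 at 70.0 and 87.6 CPM (1.25, 0.914 to 1.70), the latter with an interval that includes 1.

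Of the signals, Axin2, a target of Wnt signaling, was at 14.9 CPM at E18.5 and 64.7 CPM at P3 in the main cluster (4.36, 2.63 to 7.40), while the ratio was 2.34 over all selected nuclei and 1.18 in the other nuclei. In all, 2 of 18 genes were higher and 2 lower, against 2.85% and 8.02% of all genes. Fgf12 was the other gene higher, and Nrg1 (41.5 and 12.7 CPM) and Fgf9 (47.7 and 17.8 CPM) were lower, which over all selected nuclei were at 47.4 and 49.96 CPM and at 35.6 and 37.2 CPM. Wnt7b was at 77.4 and 92.7 CPM (1.20, 0.884 to 1.61) and Wnt9b at 106.5 and 141 CPM (1.32, 1.03 to 1.69). Of 10 Notch genes 2 were lower and none higher in the main cluster, against 8.02% and 2.85% of all genes. Notch1 (44.0 and 10.2 CPM) and its target Hes1 (108 and 48.2 CPM) were the 2 lower. Over all selected nuclei they were at 44.2 and 17.8 CPM and at 97.8 and 61.2 CPM. Bicc1, a cystic kidney gene, was at 884 and 1986 CPM (2.25, 2.09 to 2.42), at 846 and 1763 CPM over all selected nuclei, and at 559 and 894 CPM in the other nuclei.

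Plppr1, Opcml, Rap1gap and Pappa, which ranked high at E18.5 or had among the lowest ratios relative to other nuclei, were lower at P3 in the main cluster. Over all selected nuclei the ratios were 0.690 for Plppr1, 0.212 for Opcml, 0.444 for Rap1gap and 0.371 for Pappa, and outside the main cluster Plppr1 was higher at P3, at 296 and 427 CPM. Opcml was at 422 CPM at E18.5 and 29.2 CPM at P3 in the main cluster (0.0692, 0.0436 to 0.105), while in the other nuclei it was at 29.2 and 37.9 CPM. Plppr1 was at 620.5 and 161 CPM (0.260, 0.214 to 0.313), the GTPase-activating protein gene Rap1gap at 181 and 44.4 CPM (0.246, 0.168 to 0.350) and Pappa, a protease of IGF-binding proteins, at 432 and 124 CPM (0.288, 0.231 to 0.356). Rhcg was at 175 and 48.2 CPM in the main cluster (0.275, 0.191 to 0.387), but at 128 and 158.5 CPM over all selected nuclei. Relative to the other nuclei, Thsd7a (230.3 and 38.1 CPM in the main cluster) and Zfpm2 (521 and 217 CPM) were also among the lowest, and Btbd11 (87.9 and 197 CPM) among the highest. Over all selected nuclei these were at 225 and 74.9 CPM, 434 and 240.1 CPM, and 101 and 120 CPM. Tpt1, ribosomal protein genes and Fabp4 made up the 10 lowest ratios over all the selected nuclei, and these were low in the other nuclei too. Tpt1 was at 1152 and 189 CPM (0.164) in the selected nuclei and at 1380 and 230.2 CPM (0.167) in the others.

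**Figure D5:**
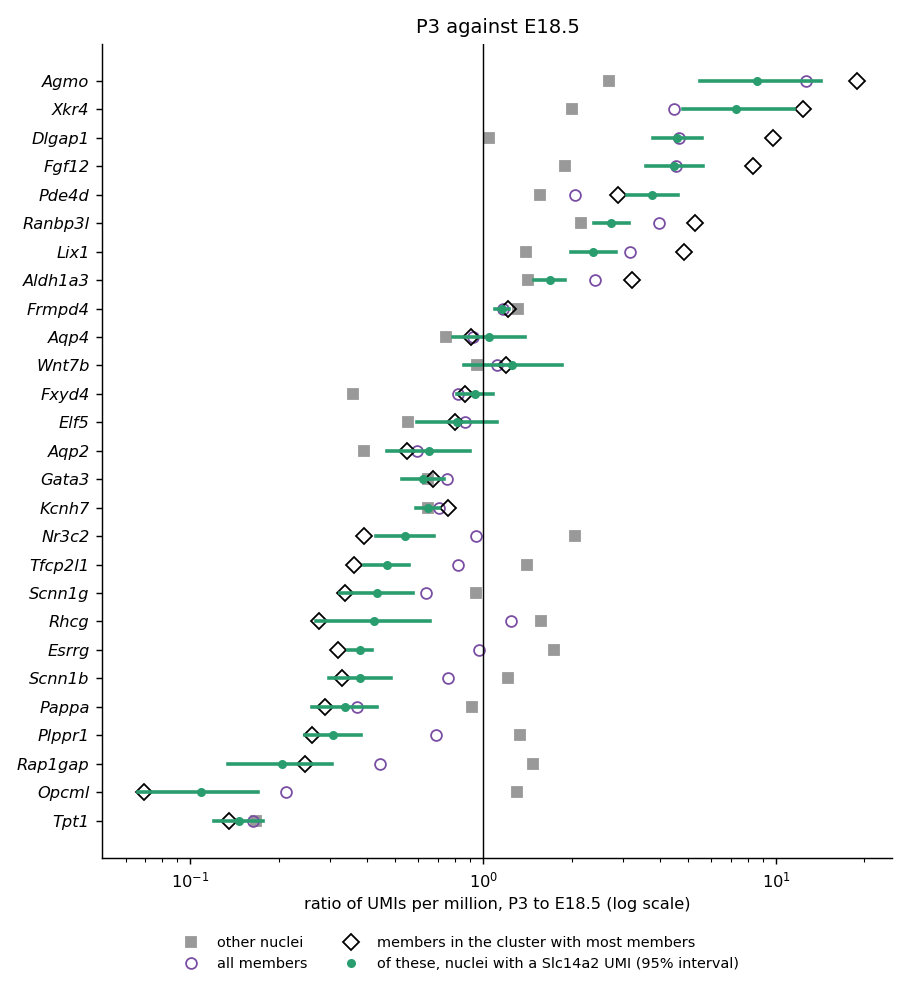
Ratio of the P3 level to the E18.5 level (log axis) in all selected nuclei (members, open circles), those of the main cluster (diamonds), those of the main cluster with an Slc14a2 UMI (green points with 95% intervals) and other nuclei (gray squares). Among nuclei with Slc14a2, genes from Agmo at 8.59 to Aldh1a3 at 1.69 lie above 1, Fxyd4 at 0.936 and Aqp4 at 1.05 have intervals across it, and Opcml at 0.109 lies far below.

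Because nuclei with Slc14a2 made up a different share of the main cluster at each age, the ages were also compared among those nuclei alone. The 172 and 132 nuclei with a UMI were still unlike in the level of Slc14a2 itself, at 1801 and 4752 CPM. Agmo (8.59, 5.48 to 14.2), Dlgap1 (4.60, 3.81 to 5.59), Fgf12 (4.47, 3.59 to 5.63) and Pde4d (3.76, 3.08 to 4.60) had ratios above 2, as did Lix1 (2.37, 1.998 to 2.83), and Aldh1a3 was at 1.69 (1.49 to 1.90). Except for Pde4d, these ratios were below those in the whole main cluster. Scnn1g (0.433, 0.324 to 0.576), Scnn1b (0.380, 0.297 to 0.483), Nr3c2 (0.540, 0.430 to 0.677), Tfcp2l1 (0.469, 0.393 to 0.558) and Opcml (0.109, 0.0663 to 0.170) remained below 1. Aqp2 was at 138 and 89.6 CPM (0.651, 0.467 to 0.903), Aqp4 at 144 and 151 CPM (1.05, 0.788 to 1.39) and Fxyd4 at 572 and 535 CPM (0.936, 0.811 to 1.08).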

How the data were processed

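Whole kidneys of E18.5 and P3 mice were dissociated to nuclei by lysis and filtration and profiled with 10x Chromium, 1 library per age. The deposited files hold raw UMI counts per gene and barcode, which the authors made with Cell Ranger on mm10 (release 5.0.1 in the submitters' processing notes and in the header of the P3 matrix, 7.0.0 in that of the E18.5 matrix). These releases differ in whether they count introns by default, and which setting was used is not given in the sources used here, so differences between the ages cannot be told apart from it. Both ages were labelled as groups by the submitters. The P3 label gives C57BL/6J, while the study's methods describe a mixed background for both ages.

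Barcodes with 1000 to 6000 UMIs (E18.5) or 1000 to 10000 UMIs (P3) and at most 0.6% mitochondrial counts were kept, which left 18673 of 21600 barcodes at E18.5 (57116462 UMIs) and 9289 of 12216 at P3 (42729642 UMIs). The rule was applied to raw counts, counts were summed over nuclei, and levels were given as CPM. Poisson intervals for levels, intervals conditional on the total for ratios and exact binomial intervals for shares, all at 95%, covered counting error only. With 1 library per age there was no test. A gene was called at a ratio of 2 with 10 CPM added to both levels, among genes with at least 10 CPM in either set. Clusters came from 2000 variable genes without the 12 genes of the rule, 50 principal components, 15 neighbors and the Leiden method at a resolution of 1. Doublets were called with scrublet in scanpy at an expected rate of 0.1 and kept. To compare shares across depths, nuclei were thinned to 1000 UMIs.

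The nuclei, gene lists and rules were chosen with earlier results of these data known. Named genes were all genes of the rule, the 10 highest ratios to other nuclei at each age (at least 50 CPM), the 10 highest and lowest ratios between ages (at least 100 CPM), the 5 highest and lowest differences of those ratios, and members of the gene lists that passed the ratio or that carry a defining role, though some genes that met these rules are not reported here. Alternatives changed the number of rule genes, the limit on tip genes, the UMI limits, the doublets, the clusters kept, the CPM added and the lowest level tested. The script that computed ratios was tested on simulated data. Promoters came from RefSeq (GRCm38.p6), and 32158 of 32285 genes matched GENCODE M21 positions. Python 3.11.15, numpy 2.4.6, pandas 2.3.3, scipy 1.17.1, scanpy 1.11.5, leidenalg 0.10.2 and matplotlib 3.10.9 were used.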

Additional observations from a re-analysis of the deposited data

Results flagged for a closer look

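Barcodes above the upper UMI limits took no part in the main comparisons, and some of them met the rest of the rule. Of 2305 such barcodes at E18.5, 322 met the rest of the rule (14.0%, exact binomial 95% interval 12.6 to 15.5), and of 1572 at P3, 209 did (13.3%, 11.7 to 15.1), against 4.57% and 3.66% of the kept nuclei. A deeper barcode has more chances to show a UMI of each gene, and the part of doublets in these shares was not tested.

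For 10 listed or ranked genes the interval of the ratio to other nuclei lay below 1 at 1 age and above 1 at the other. Genes with an interval that included 1 at either age, such as Xkr4 (ratios of 0.881 and 1.97), were not counted. The difference between the ages was not tested in any of them. Slc12a3 had a ratio of selected to other nuclei of 0.515 at E18.5 and 2.33 at P3, and Trpm6, the magnesium channel of the distal convoluted tubule, of 0.415 and 2.44. In the main cluster Slc12a3 was at 22.9 CPM at both ages, and Trpm6 at 5.57 and 27.9 CPM. Wnk1, a kinase that controls sodium transport, had ratios of 0.739 and 1.11, with 222 and 320 CPM in the main cluster. Lgr5, a receptor for R-spondins, had ratios of 0.739 and 1.86, with 14.9 and 30.5 CPM. Nr3c1, the glucocorticoid receptor, went the other way, at 1.27 and 0.786, with 197.5 and 145 CPM. Of the genes named by rank, Egfem1 had ratios of 0.649 and 3.74 (18.6 and 36.8 CPM in the main cluster), Btbd11 of 0.738 and 2.48 (87.9 and 197 CPM), Abca13 of 0.445 and 1.29 (17.96 and 36.8 CPM) and Zfpm2 of 1.26 and 0.515 (521 and 217 CPM). Hmx2, a homeobox gene of the intercalated cell list, had 0 UMIs at E18.5 (ratio 0) and a ratio of 4.16 at P3 from 10 UMIs.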

How the results depend on the processing

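The number of selected nuclei depended on the rule. At E18.5 (853) it was 1845 with at least 2 genes, 568 with at least 4, 535 with no tip gene, 347 when the rule was applied after thinning, 392 without Kcnh7, Mgat4c and Lypd6, 553 in clusters enriched for them and 476 in the main cluster. At P3 (340) it was 829 with at least 2 genes, 159 with no tip gene, 151 after thinning, 549 without an upper UMI limit, 183 without the 3 genes and 135 in the main cluster. The alternative of the main cluster was added after the data were seen. Leaving out each rule gene in turn and clustering at a resolution of 2 kept these counts within 1.5 times.

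Genes higher than in other nuclei at E18.5 (409) numbered 268 without an upper UMI limit and 152 with 50 CPM added. Genes lower (287) numbered 548 with at least 4 genes, 544 without called doublets, 695 after thinning, 3 without an upper limit, 532 without the 3 genes, 724 in enriched clusters, 895 in the main cluster and 73 with 50 CPM added. At P3, genes higher (424) numbered 207 without an upper limit, 651 in the main cluster and 156 with 50 CPM added, and genes lower (608) numbered 1098 after thinning, 57 without an upper limit, 988 in enriched clusters, 1274 in the main cluster and 172 with 50 CPM added. Between ages, genes higher (182) numbered 322 in the main cluster, 44 with 50 CPM added and 108 among genes with at least 50 CPM, and genes lower (530) numbered 802 after thinning, 905 in the main cluster and 163 with 50 CPM added. With the same limits of 1000 to 6000 UMIs at both ages, 139 genes were higher and 579 lower. Under those limits 19 ratios of named genes between ages moved beyond the counting interval of the main value and 17 did not.

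Some called ratios turned. The P3 ratio of Slc12a3 to other nuclei was 0.927 with at least 4 genes, 0.610 after thinning, 0.319 without the 3 genes, 0.143 in enriched clusters and 0.192 in the main cluster. That of Calb1 was 0.647 after thinning, 0.766 in enriched clusters and 0.514 in the main cluster, that of Egfem1 0.638 and that of Gfra1 0.563 in the main cluster. The ratio between ages of Slc12a3 was 0.836 without the 3 genes, 0.742 in enriched clusters and 0.997 in the main cluster, that of Calb1 0.581, 0.708 and 0.488 (after thinning, in enriched clusters and in the main cluster), and that of Lrp2 0.861 in the main cluster. The cause was not tested. Of 396 alternative ratios between ages, 7 turned and 162 others moved beyond the counting interval of the main value, and of 648 alternative ratios to other nuclei, 10 turned and 405 moved. Of 576 alternative levels, 401 moved.

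No paired analysis was possible because each age had 1 library. With 3 UMIs worth 0.962 CPM at E18.5 and 1.53 CPM at P3, genes at a few CPM, such as Avpr2, rested on few UMIs and had wide intervals.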
